A study of Gallus gallus with 6 samples.

Results

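The 5 STAT genes STAT2, STAT3, STAT4, STAT5B and STAT6 and the 4 JAK genes JAK1, JAK2, JAK3 and TYK2 were taken by symbol from the deposited gene tables, where all 9 were found among 14903 genes. They were measured by RNA sequencing in HD11 cells, a chicken macrophage-like line that was derived from bone marrow and transformed by an avian myelocytomatosis virus. The cells are labelled wild type. The 3 mock libraries came from cells left untreated, for which no time is given, and the 3 IFN-beta libraries came from cells exposed for 3 h to recombinant chicken interferon beta (100 ng/mL). All 6 libraries carry the same batch label, and each group is described as independent biological replicates of this single line. STAT genes outside these 5 are not analysed here, so the set is not the whole family.

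JAK kinases are bound to the inner tails of cytokine receptors and phosphorylate them, and one another, when a ligand brings receptor chains together. STAT factors dock on the phosphorylated receptor, are phosphorylated on a tyrosine in turn, pair up and enter the nucleus to bind DNA. In mammals the type I interferon receptor uses JAK1 and TYK2 and signals through STAT2 in complex with a partner STAT and an IRF protein, while STAT3, STAT5 and STAT6 are best known downstream of the interleukin 6 and 10, colony-stimulating factor and interleukin 4 receptors. The activity of these proteins is set by phosphorylation, which RNA sequencing does not measure, so the values below are transcript levels only.

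Library totals were 15665594 to 15885227 counts. Levels are given as CPM (counts scaled to the TMM-adjusted library size) for comparing groups, and as the authors' TPM (normalised for length and depth) for comparing genes, as mean ± SD over 3 libraries per group. A gene was called when its Benjamini-Hochberg adjusted p, over 11091 tested genes in edgeR's quasi-likelihood test, was under 0.05. Calls were common, with 46.7% of the tested genes called, 24.3% higher in IFN-beta and 22.4% lower. Macrophage markers were high, with 14 of 15 above 1 CPM, and they summed to 5029 to 5115 CPM in mock and 6179 to 6381 CPM in IFN-beta, while LYZ, the lysozyme gene, was at 0.0411 and 0.131 CPM. They did not move together. Of 14 tested, 8 were called higher, 2 lower (CSF1R and MRC1L-B) and 4 did not pass, a share called of 71.4%. CEBPB alone went from 52.4 to 348 CPM. The T cell markers found summed to 3.03 to 5.32 and 2.88 to 3.78 CPM and the B cell markers to 5.71 to 6.54 and 5.33 to 8.05 CPM. The fibroblast list summed to 95.5 to 104 and 74.9 to 81.1 CPM, nearly all from FBN1. The thrombocyte and erythroid list summed to 92.9 to 96.3 and 128 to 136 CPM, nearly all from the entry ALAS2. That entry was matched through a RefSeq synonym to a gene listed under another symbol, so which gene it stands for is uncertain. The same holds for the macrophage entry MRC1L-B. The part of these marker shifts in the results below was not tested. In RNA from whole cultures, fewer cells that express a gene and less RNA per cell cannot be told apart.

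Of the 9 genes, STAT2 had the largest change, 2.87-fold higher in IFN-beta, and STAT3 was 1.27-fold higher. STAT5B was 1.19-fold lower and JAK1 1.17-fold lower. JAK2 was 1.10-fold higher, a call lost in several of the alternatives given below. TYK2, STAT6 and JAK3 did not pass the test, and STAT4 was close to undetected in both groups. Of the 8 tested genes, 3 were thus called higher and 2 lower, against the background shares of 24.3% and 22.4%. With so few genes, a share of 5 in 8 is not set apart from the 46.7% of all tested genes.

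The genes span a wide range of abundance. In mock cells JAK1 stood at 113 ± 11.2 TPM (rank 1384 of 14903 genes), STAT5B at 103 ± 2.59 TPM and STAT3 at 88.3 ± 1.996 TPM. JAK1 and STAT5B overlapped between libraries, since JAK1 led in mock replicates 1 and 2 and STAT5B in mock replicate 3. STAT6 followed at 46.7 ± 2.43 TPM, then TYK2 at 15.9 ± 1.05 TPM and JAK2 at 11.1 ± 0.639 TPM. STAT2 was far below at 2.83 ± 0.193 TPM, JAK3 was at 0.863 ± 0.127 TPM and STAT4 at 0.0433 ± 0.0451 TPM. In each of the 3 IFN-beta libraries the order at the top was STAT3, JAK1, STAT5B, and the places of the other 6 genes were those of the mock libraries. STAT2 kept place 7 of the 9, and its rank among all genes moved from 9172 to 7412.

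**Figure D1:**
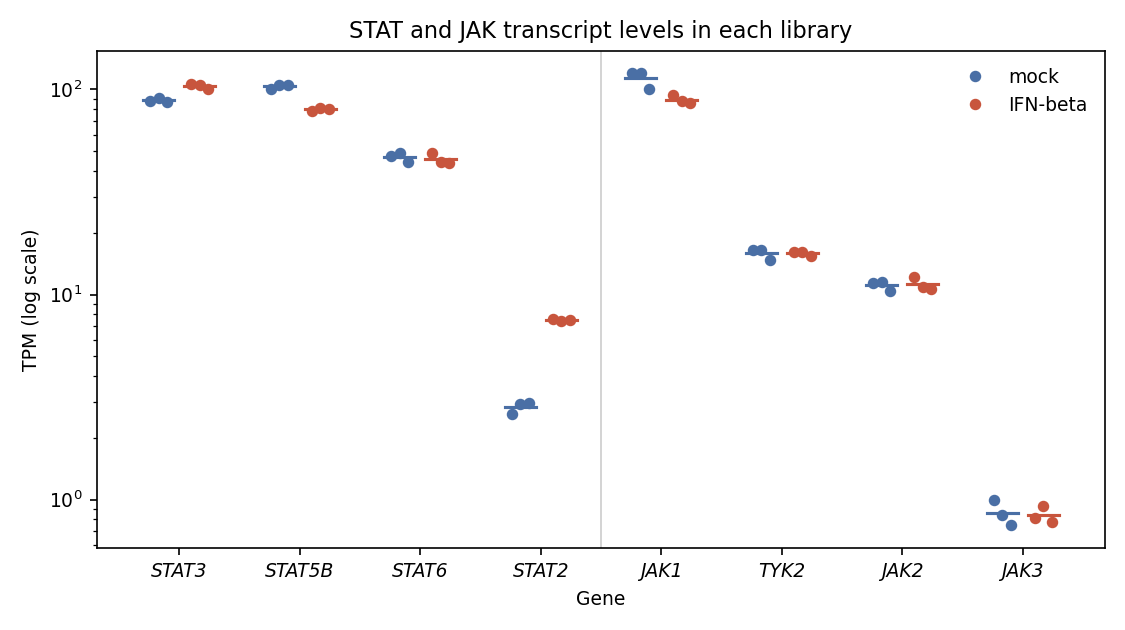
TPM on a log axis for 8 of the genes in each library (points, mock blue and IFN-beta red) with the group mean as a line; STAT4 is left out because it was listed at 0 in 2 libraries. STAT2 rose from 2.83 to 7.51 TPM yet stayed below JAK2, while STAT3 and STAT5B changed places.

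Among the kinases, JAK1 pairs with most cytokine receptors and is required for the response to all interferon types in mammals. It was at 355, 355 and 309 CPM in the mock libraries and at 301, 287 and 286 CPM in the IFN-beta libraries. Every IFN-beta library lay below every mock library, but mock replicate 3 stood nearer to the IFN-beta group than to its own, and the gap between the groups was narrow. The log2 fold change was -0.22 (SE 0.05), and JAK1 fell with an edgeR adjusted p of 0.000572 (Benjamini-Hochberg). Without mock replicate 3 it was -0.29, and without mock replicate 2 it was -0.18, and JAK1 was called in both cases. On log2(TPM + 1) the median log2 fold change of all genes was -0.10. That of JAK1 was -0.34, or -0.24 relative to this median.

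TYK2, the kinase bound to the IFNAR1 chain, was at 38.6, 39.6 and 36.4 CPM in mock and 40.9, 41.5 and 40.6 CPM in IFN-beta. The groups did not overlap, as for 53.9% of all tested genes, but the step between them was small. The log2 fold change was 0.10, with an approximate 95% interval of -0.01 to 0.21 and an edgeR adjusted p of 0.140 (Benjamini-Hochberg), so TYK2 did not pass. On the linear scale the interval runs from 0.991-fold to 1.16-fold.

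JAK2, which serves the receptors of interferon gamma, growth hormone and granulocyte-macrophage colony-stimulating factor, was at 62.1, 62.9 and 58.5 CPM in mock. In IFN-beta it was at 71.4, 64.9 and 65.2 CPM, all above mock, with IFN-beta replicate 1 the highest. JAK2 rose by a log2 fold change of 0.13 (SE 0.05), with an edgeR adjusted p of 0.0431 (Benjamini-Hochberg). At the same log2 fold change of 0.13 the call was lost with DESeq2 (adjusted p 0.111) and in the authors' deposited table (0.133). It was also lost without IFN-beta replicate 1 (edgeR adjusted p 0.188), mock replicate 1 (0.0536) or mock replicate 3 (0.118), where the log2 fold change was 0.09, 0.15 and 0.10. Library size alone and log2(TPM + 1) lower the median of all genes. Under these JAK2 was at 0.04 and 0.01 and not called, and relative to the median it was at 0.14 and 0.12.

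JAK3, the kinase of the common gamma chain of lymphocyte cytokine receptors, was low. It had 40, 34 and 31 reads in mock and 33, 39 and 33 reads in IFN-beta, which is 105 reads in each group. The groups overlapped fully. The log2 fold change was 0.08 with an approximate 95% interval of -0.32 to 0.48 (edgeR adjusted p 0.769, Benjamini-Hochberg). On the linear scale this is 0.801-fold to 1.39-fold, so these reads do not settle whether JAK3 changed within that range.

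Among the STAT factors, STAT2 is the one given over almost wholly to type I and type III interferon signalling in mammals. It had 85, 96 and 100 reads in the mock libraries and 252, 253 and 258 reads in the IFN-beta libraries, or 5.78 ± 0.472 and 16.6 ± 0.267 CPM. The groups were far apart and the IFN-beta libraries nearly equal. STAT2 rose by a log2 fold change of 1.52 (SE 0.10), with an edgeR adjusted p of 9.4e-11 (Benjamini-Hochberg). Of all tested genes, 2.30% had a larger absolute log2 fold change, and of the called genes 4.93%. It was the one gene of the 9 called in a test against a 1.5-fold change, with an edgeR (glmTreat) adjusted p of 3.0e-08.

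The 3 genes whose change was most like that of STAT2 were IRF7, RPS6KA2 and NET1. Likeness was the Euclidean distance between log2 CPM over the 6 libraries after subtracting the mock mean of each gene, and it was 0.130, 0.132 and 0.140. IRF7, an interferon regulatory factor, rose by a log2 fold change of 1.46. RPS6KA2, a ribosomal S6 kinase gene, rose by 1.41, and NET1 by 1.49. With only mock and IFN-beta to compare, this distance mostly picks genes of similar log2 fold change, so these values follow from the choice. Shared regulation with STAT2 was not tested.

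STAT3, the factor of the interleukin 6 and interleukin 10 receptors, was at 275, 283 and 279.8 CPM in mock and 355, 361 and 349 CPM in IFN-beta. Its replicates lay close together, with a coefficient of variation of 1.53% in mock, the lowest of the 9 genes there, and 1.58% in IFN-beta, and the groups were well apart. STAT3 rose by a log2 fold change of 0.35 (SE 0.03), with an edgeR adjusted p of 6.1e-08 (Benjamini-Hochberg). Larger absolute changes were seen in 25.1% of tested genes. The increase was 0.25 under library size alone and 0.23 on log2(TPM + 1), called in both (edgeR adjusted p 5.1e-06; limma adjusted p 0.00524).

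STAT5B, a factor of the growth hormone, prolactin and colony-stimulating factor receptors, was at 221, 231 and 237 CPM in mock and 186, 197 and 196 CPM in IFN-beta. Every IFN-beta library lay below every mock library. STAT5B fell by 0.25 on the log2 scale (SE 0.04), with an edgeR adjusted p of 2.3e-05 (Benjamini-Hochberg). The deposited tables list this gene as STAT5B, while RefSeq's table of the assembly GRCg7b gives the same identifier, 395556, the symbol STAT5A. In that assembly it is the protein-coding neighbour of STAT3, so these adjacent genes moved in opposite directions. RAVER2 beside JAK1 fell (log2 fold change -0.21) and RCL1 beside JAK2 rose (0.14), as JAK1 and JAK2 did. CDC37 beside TYK2 (0.17) and NAB2 beside STAT6 (0.48) were called higher, while TYK2 and STAT6 were not called. With 46.7% of all tested genes called, such matches are common, and a link between neighbours was not tested.

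STAT6, the factor of interleukin 4 and interleukin 13 signalling, was at 28.7, 30.04 and 28.1 CPM in mock and 32.2, 29.9 and 29.96 CPM in IFN-beta. The groups overlapped. The log2 fold change was 0.08, with an approximate 95% interval of -0.04 to 0.21 (edgeR adjusted p 0.283, Benjamini-Hochberg). The level of STAT6 depends on the unit more than that of the other genes. It had 10.2 counts per TPM unit against 51.9 for STAT3, a ratio of 0.196, and 11.3% of tested genes had fewer, so its TPM rests on a short counted length. In GRCg7b it also overlaps LRP1, the low-density lipoprotein receptor-related protein gene, which fell from 529 ± 24.5 to 432 ± 19.9 CPM, and with the strand setting not stated the reads of the overlap cannot be assigned. STAT2 overlaps the interleukin gene IL23A in the same way, but IL23A was at 0.0205 ± 0.0355 CPM in mock and 0.0870 ± 0.0380 CPM in IFN-beta.

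STAT4, which in mammals transmits interleukin 12 signals in T cells and natural killer cells, had 2, 0 and 4 reads in mock and 3, 0 and 1 reads in IFN-beta. The low-count filter took it out of the test. The ratio of 4 to 6 reads lies between 0.138 and 2.81 by an exact binomial 95% interval of counting error alone. These few reads thus do not settle whether the groups differed.

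**Figure D2:**
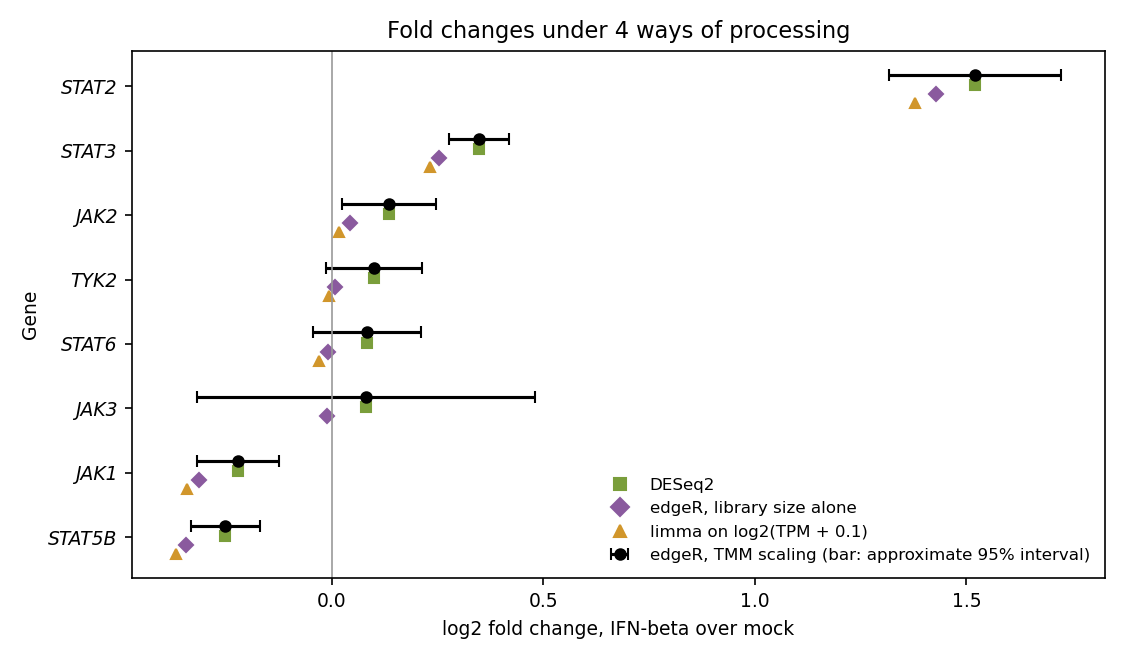
Log2 fold change of IFN-beta over mock for 8 genes, with edgeR's TMM scaling (black, bars are approximate 95% intervals), DESeq2, library size alone and log2(TPM + 0.1). Library size alone and TPM move the median of all genes to the left, by 0.09 and 0.11. STAT2, STAT3, JAK1 and STAT5B keep their side of 0 under the 4 settings. JAK3 has no TPM point because its mean was under 1 TPM.

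Small changes depend on how libraries are scaled, so members were also compared within each library, where scaling cancels. The TPM ratio of STAT3 to STAT5B was 0.875, 0.862 and 0.828 in mock and 1.34, 1.29 and 1.25 in IFN-beta. By TPM, STAT5B was thus the more abundant of this pair in each mock library and STAT3 in each IFN-beta library, a change of 1.52-fold in the ratio. The order in mock rests on the lengths behind TPM. Without correction for length, STAT3 was above STAT5B in mock too, at 279 ± 4.28 against 230 ± 8.40 CPM. The ratio of JAK1 to TYK2 was 7.24, 7.23 and 6.81 in mock and 5.84, 5.44 and 5.58 in IFN-beta, without overlap. The ratio of JAK1 to JAK2 went from 10.2 ± 0.438 to 7.94 ± 0.191, also without overlap. In contrast, the ratio of JAK2 to TYK2 was 0.697 ± 0.00645 in mock and 0.709 ± 0.0429 in IFN-beta and overlapped between the groups. Of 8 pairs computed, 7 had groups that did not overlap, each with an exact two-sided permutation p of 0.1, the smallest that 3 against 3 can give, and 0.114 after Benjamini-Hochberg adjustment over the 8. The 8 pairs were chosen after the fold changes were seen. Groups without overlap were common, since 53.9% of all tested genes had them in CPM.

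**Figure D3:**
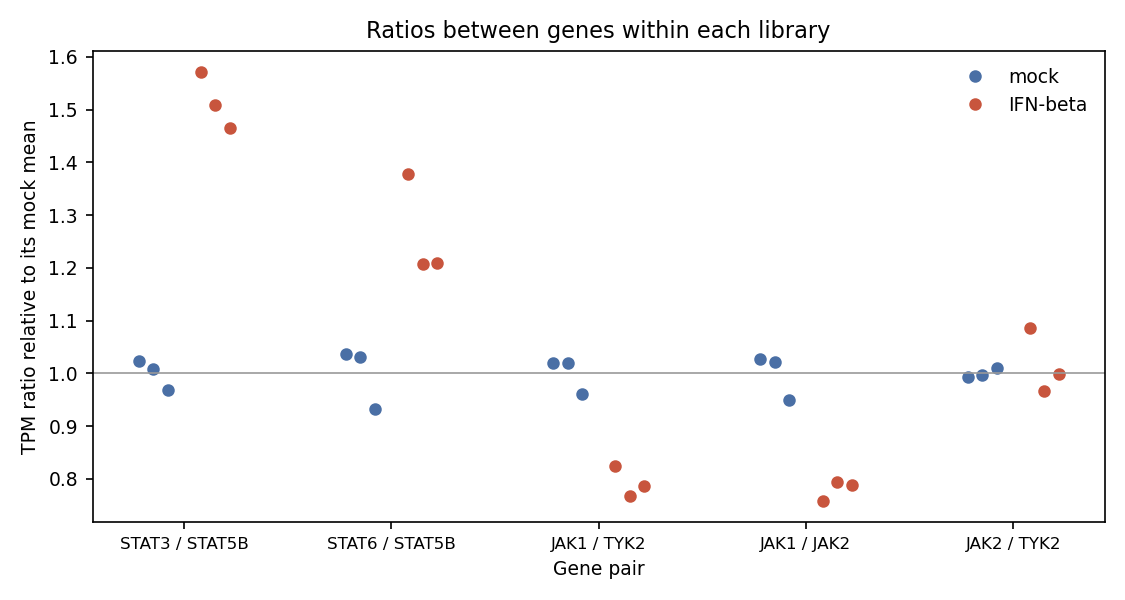
TPM ratio of 5 gene pairs in each library, divided by the mean of the mock libraries (points, mock blue and IFN-beta red). The ratio of STAT3 to STAT5B lies above the mock libraries in the IFN-beta libraries and both JAK1 ratios lie below, while JAK2 to TYK2 overlaps.

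The summed TPM of the 5 STAT genes differed little between groups, 241 ± 5.36 in mock and 237 ± 5.42 in IFN-beta (exact permutation p 0.5, two-sided), but its make-up differed. This sum and that of the JAK genes below are not corrected for the downward shift of TPM. The median log2 fold change of all genes was -0.11 on log2(TPM + 0.1). STAT5B supplied 42.2, 42.4 and 43.9% of the sum in mock and 32.6, 34.1 and 34.5% in IFN-beta. STAT3 supplied 36.6 ± 0.285% in mock and 43.7 ± 0.399% in IFN-beta. STAT2 supplied 1.17 ± 0.0741% and 3.17 ± 0.0689%, and STAT6 19.4 ± 0.738% and 19.3 ± 0.925%.

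The summed TPM of the 4 JAK genes was 149, 149 and 126 in mock and 123, 115 and 112 in IFN-beta, so mock replicate 3 lay close to the IFN-beta libraries. JAK1 made up most of the sum, 80.2 ± 0.585% in mock and 76.1 ± 0.259% in IFN-beta. TYK2 went from 11.3 ± 0.311 to 13.6 ± 0.440% and JAK2 from 7.88 ± 0.289 to 9.59 ± 0.264%. Their own TPM overlapped between the groups. TYK2 was at 15.9 ± 1.05 TPM in mock and 15.85 ± 0.435 TPM in IFN-beta, and JAK2 at 11.1 ± 0.639 and 11.2 ± 0.846 TPM. These TPM values carry the downward shift noted above. Relative to the median of all genes on log2(TPM + 0.1), TYK2 was at 0.10, JAK2 at 0.12 and JAK1 at -0.24. How much each of these changes adds to the larger shares of TYK2 and JAK2 was not tested. The groups did not overlap for the shares of JAK1, JAK2, TYK2, STAT2, STAT3 and STAT5B (exact permutation p 0.1 each, two-sided, the smallest possible, and 0.15 adjusted over the 9 genes). For the CPM of single genes, 53.9% of all tested genes had groups without overlap. Shares of a sum are not independent of one another, and the level of STAT6 noted above enters those of the STAT genes.

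**Figure D4:**
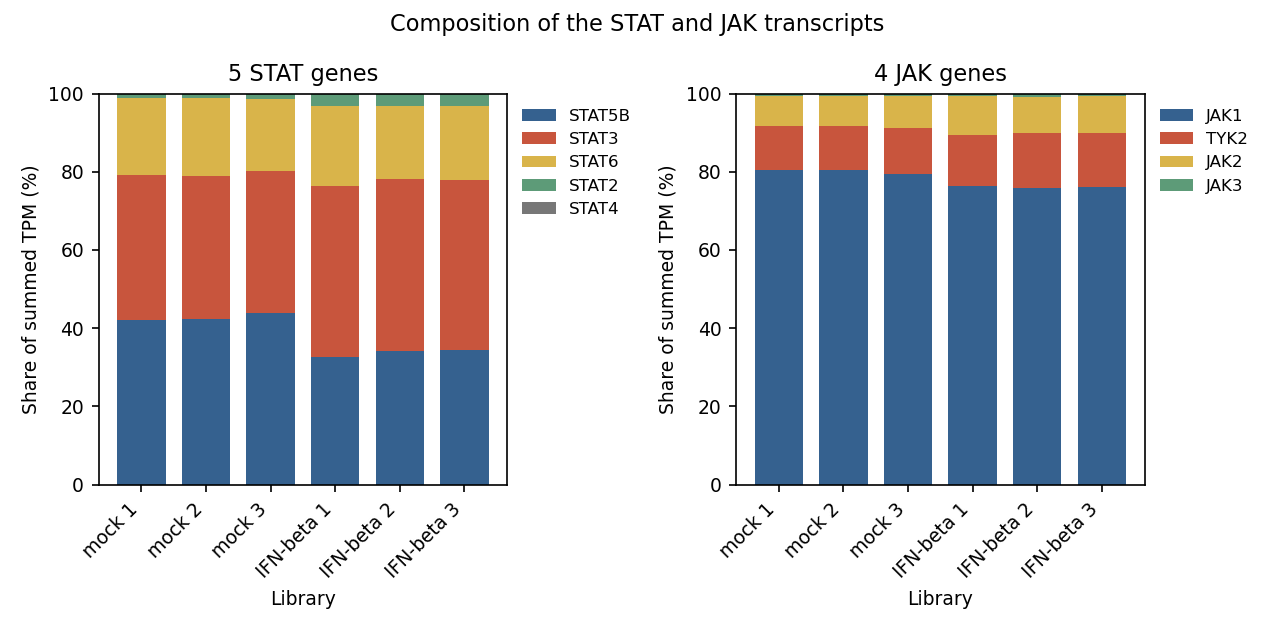
Share of each gene in the summed TPM of the 5 STAT genes (left) and the 4 JAK genes (right), one bar per library. The STAT5B share falls from 42.8% to 33.8% on average and the STAT3 share rises from 36.6% to 43.7%, while JAK1 is 75.9% or more of the JAK sum in each library; STAT4 and JAK3 are too small to see clearly.

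Upstream of the kinases, all 5 interferon receptor chains found were called, 2 higher and 3 lower, with a median log2 fold change of -0.19 (median of all tested genes 0.00). Of all tested genes 46.7% were called, 24.3% higher and 22.4% lower, and the count of these few chains was not tested against those shares. IFNAR1, the chain that binds TYK2, fell by 0.58 on the log2 scale, and IFNAR2, the chain that binds JAK1, fell by 0.19. Of the interferon gamma receptor, IFNGR1, which binds JAK1, fell from 38.3 ± 3.74 to 21.99 ± 0.807 CPM, while IFNGR2, which binds JAK2, rose from 155 ± 3.97 to 203 ± 4.47 CPM. IL10RB, a shared chain of the type III interferon and interleukin 10 receptors that binds TYK2, rose from 33.1 ± 1.61 to 43.9 ± 2.77 CPM. Of these chains, IFNAR2 and IFNGR1, which bind JAK1, fell and IFNGR2, which binds JAK2, rose. Of those that bind TYK2, IL10RB rose and IFNAR1 fell. This sorting by kinase was made after the values were seen and was not tested. It did not hold outside these chains, since IL10RA, which also binds JAK1, rose (log2 fold change 0.34). The edgeR adjusted p (Benjamini-Hochberg) of the 5 interferon receptor chains was 0.00670 or lower.

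Of 14 tested chains listed for other JAK-coupled receptors, 5 were called higher, 3 lower and 6 did not pass (median 0.06). That is a share called of 57.1% beside 46.7% of all tested genes, and 11 further chains were too low to be tested. The genes called higher include IL22RA2 (log2 fold change 0.12), in mammals a secreted binding protein and not a signalling chain. It was named after its value was seen. CSF2RB, the beta chain of the granulocyte-macrophage colony-stimulating factor receptor, rose from 3.80 ± 0.644 to 13.8 ± 1.06 CPM. IL6ST, the gp130 chain upstream of STAT3, rose from 79.5 ± 3.38 to 116 ± 5.79 CPM. In TPM its step was smaller, from 17.9 in mock to 21.9 in IFN-beta. IL10RA, which binds JAK1, rose from 8.59 ± 0.798 to 10.9 ± 0.274 CPM. CSF3R, the receptor of granulocyte colony-stimulating factor, fell from 439 ± 20.4 to 347 ± 9.02 CPM.

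Ligands of these receptors were mostly low. Of 16 found, 10 were too low to be tested, and of 6 tested 3 were called higher, 1 lower and 2 did not pass. The shares among all tested genes were 24.3% higher and 22.4% lower, and 6 genes are too few to set against them. CSF3, the ligand of CSF3R, was at 0.123 ± 0.0619 CPM in mock, which rests on few reads, and at 9.06 ± 0.846 CPM in IFN-beta. IL12B, the shared subunit of interleukins 12 and 23, fell from 8.20 ± 0.489 to 3.24 ± 0.275 CPM.

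Of 20 tested inhibitors of the pathway, 8 were called higher, 5 lower and 7 did not pass, with a median log2 fold change of 0.06. That is 65% called, against 46.7% of all tested genes, and the share lower was near the 22.4% of all genes. SOCS3 and SOCS1, which block JAK kinases directly, rose by 5.28 and 2.64 on the log2 scale, and USP18, which restrains the type I receptor at IFNAR2, by 4.29. SOCS3 had few reads in mock (18, 21 and 16), and its log2 fold change ran from 4.21 to 5.39 over the alternatives given below. The SOCS genes did not move together. SOCS2 and SOCS6 were called lower (log2 fold changes -0.61 and -0.35), and SOCS4 and SOCS5 did not pass. SOCS2, SOCS4, SOCS5 and SOCS6 were named after their values were seen. PTPRC, the phosphatase CD45, rose from 274 ± 13.9 to 551 ± 16.8 CPM. The next 4 genes were named after their values were seen. PTPN1 and PTPN2, phosphatases that act on JAK and STAT proteins, also rose. PTPN1 went from 217 ± 9.004 to 351 ± 4.36 CPM, and PTPN2 stood at 222 ± 5.83 CPM in mock and 363 ± 0.268 CPM in IFN-beta. PTPN6, the phosphatase SHP1, fell from 475 ± 3.32 to 337 ± 3.195 CPM, and PIAS1, a SUMO ligase that inhibits STAT proteins, fell from 113 ± 1.69 to 66.0 ± 1.36 CPM.

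Of 22 partners and cofactors of STAT proteins, 12 were called higher, 2 lower and 8 did not pass (median 0.13), against 24.3% higher and 22.4% lower among all tested genes. IRF1 rose by 3.34 on the log2 scale. NMI and IFI35, which bind each other and interact with STAT proteins, both rose. NMI went from 72.6 ± 1.64 to 141 ± 1.90 CPM, and IFI35 stood at 105 ± 1.80 CPM in mock and 176 ± 6.18 CPM in IFN-beta. In TPM the step of IFI35 was smaller, from 86.9 in mock to 112 in IFN-beta.

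The listed targets had larger median log2 fold changes than the 4 tested STAT genes (0.21), a difference that was not tested. All 15 listed targets of the type I interferon STAT complexes were called higher, with a median log2 fold change of 2.97, and OASL and IFIT5, both antiviral proteins, had the largest values, 7.40 and 7.28, followed by SAMD9L (6.60) and MX1 (6.56). Among all tested genes, 24.3% were called higher and 22.4% lower. Of 19 tested targets of STAT3, STAT5 and STAT6, 14 were called higher, none lower and 5 did not pass (median 1.29). SOCS3 led these, and PIM1 and PIM3, serine/threonine kinases, rose by 2.97 and 2.54. CEBPB, a myeloid transcription factor, rose by 2.73. These lists were put together with earlier results of the same libraries known, and their targets are also targets of other factors, so the counts are not independent evidence of a direction.

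**Figure D5:**
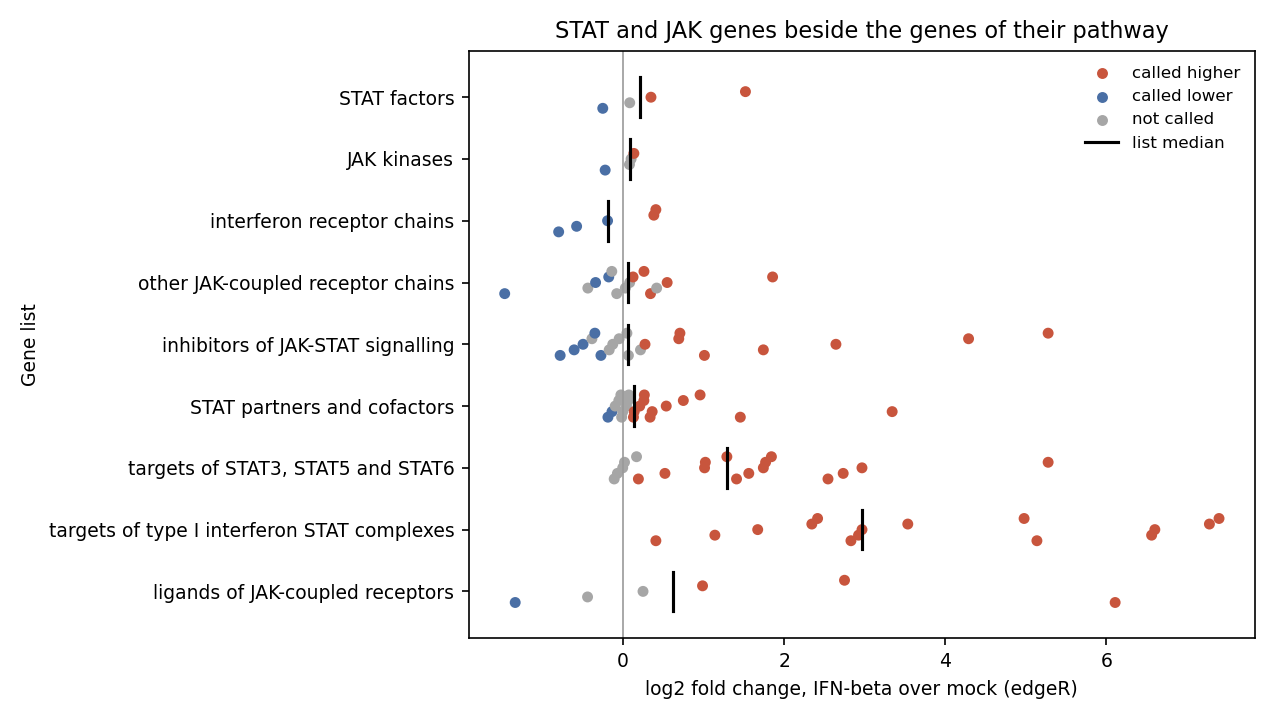
Log2 fold change of each tested gene by list (red called higher, blue called lower, grey not called by edgeR), with the list median as a black line. The STAT and JAK genes lie between -0.25 and 1.52, a narrower range than that of the inhibitors and of both target lists.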

How the data were processed

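Groups and replicate numbers came from the sample titles. The authors deposited estimated counts per gene, of which 2322 genes have a value that is not whole, and the authors' TPM for the same 14903 genes. Their own comparison, per the file headers, holds log2 fold changes, p-values and q-values. The submitters' processing notes name the build GRCg6a and DESeq2. The aligner, counter, annotation and strand use were not given in the sources used here. Counts were rounded and filtered with filterByExpr, and edgeR 4.0.16 (R 4.3.3) was fitted with TMM factors and the group as its only term (glmQLFit, glmQLFTest, Benjamini-Hochberg over 11091 genes). The factors ran from 1.03 to 1.04 for the mock libraries and from 0.963 to 0.973 for the others. The approximate SE divides the absolute log2 fold change by the root of F, and intervals are built from it. Alternatives used DESeq2 1.42.0 and limma 3.58.1. The test was run on simulated counts with 200 changed genes, as many up as down, far fewer than were called here. That run does not bear on the scaling shifts given below. Pairs of libraries within a group differed by 1.67 to 4.48 times the chi-square that sampling gives, mock replicates 1 and 3 the most. RefSeq's table of GRCg7b gave symbols and neighbours only. Of 216 list entries, 163 were matched by symbol, 5 through that table and 48 not at all.

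The 9 genes and all lists were chosen with earlier results of these data known. Besides the 9 genes, each pathway list gave up to 4 called genes with the largest absolute log2 fold change, if the higher group averaged 5 CPM or more and the groups did not overlap. All interferon receptor chains and the 3 genes most like STAT2 were also named, and other pathway genes are said to be named after their values were seen. Markers and neighbouring genes are named as checks.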

Additional observations from a re-analysis of the deposited data

How the results depend on the processing

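STAT2 was called higher in all 16 alternatives, with log2 fold changes of 1.15 to 1.57. STAT3 was called higher, and JAK1 and STAT5B lower, in 15 of 16, the exception being the test against a 1.5-fold change, which called 1 member higher and 0 lower. JAK2 was called in 7 of 16. Without 1 library at a time, 2 to 3 members were called higher and 2 lower. TYK2, STAT6 and JAK3 were called in none. Library size alone moved the median of all genes to -0.09, and log2(TPM + 1) and log2(TPM + 0.1) moved it to -0.10 and -0.11. Relative to these medians STAT3 was at 0.35, 0.33 and 0.34, STAT5B at -0.25, -0.26 and -0.26, TYK2 at 0.10, 0.09 and 0.10 and STAT6 at 0.08, 0.07 and 0.08, while JAK3 was at 0.08 under library size alone. Of all called genes, 52.1% were higher in the reported fit, 30.2% under library size alone and 26.5 to 27.6% on TPM. The reported 2697 higher and 2480 lower genes became 1734 and 4008 under library size alone and 416 and 246 against a 1.5-fold change; 1301 were higher on log2(TPM + 1), 1272 on log2(TPM + 0.1) and 1363 with no filter on TPM. Without 1 library they were 2338 to 2808 and 2005 to 2622. Of the pathway genes, 57 were higher, against 51 under library size alone, 38 against a 1.5-fold change and 55 to 58 without 1 library. Lower were 14, against 23 under library size alone, 4 against a 1.5-fold change and 12 to 18 without 1 library. The numbers tested per list are given above, and among all tested genes 24.3% were higher and 22.4% lower in the reported fit. The causes were not tested, beyond the shifts that each scaling makes.

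Whether the replicate numbers pair the libraries is not settled, and the reported fit did not pair them. Same-numbered mock and IFN-beta libraries had weak correlations of deviations, 0.0675 to 0.0831. Those of different numbers were -0.0602 to -0.0142, so each library correlated best with its own number. Deviations were taken from the group mean, so positive values for the same number largely force negative ones elsewhere. The negative values are thus not separate evidence. With the replicate number as a block, 3077 genes were called higher and 2792 lower, and the same calls were made among the 9 members (JAK2, edgeR adjusted p 0.0141). Depth limits STAT4 and JAK3 most, with 10 and 210 reads over 6 libraries.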
